A study of Mus musculus with 17 samples.

Results

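Transcripts of 7 genes grouped here as late neutrophil genes were followed in RNA sequencing of mouse cochlear tissue after noise exposure (NE). The genes were S100a8, S100a9, Mmp9, Csf3r, Fpr1, Fpr2 and Selplg. The name is that of the set, and when in maturation each gene is switched on was not measured. The members were taken by gene symbol, and all 7 were found among the 35285 genes of the deposited table and measured in every library. The 17 libraries came from 17 male C57BL/6J mice (genotype WT in the labels), which were 8 weeks old when supplied, and cochleae were collected 2 days after the exposure. The 3 control mice received intraperitoneal saline and no noise. The 7 NE mice were exposed for 2 h to noise of 8 to 16 kHz at 100 dB, described as octave-band in the paper and as broadband in the sample labels, and no injection is described for them. In the 7 brimonidine mice the same noise was combined with brimonidine, which activates α2-adrenergic receptors, given intraperitoneally at 1 mg/kg in 3 injections. By the study's methods, mice had hearing tests under ketamine and xylazine, itself an α2-adrenergic agonist, before collection, and no library came from mice given brimonidine without noise. Each library is from 1 mouse, so p-values measure the spread between mice.

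Neutrophils are short-lived white blood cells that mature in bone marrow, and they make their products in sequence. Proteins of the azurophil granules come first, those of the specific and gelatinase granules later, and the receptors for chemical attractants and the adhesion ligands of the circulating cell come last. S100A8 and S100A9 are small calcium-binding proteins that pair as calprotectin, fill the neutrophil cytosol and, once released, bind the receptors TLR4 and RAGE. MMP9 is a gelatin-degrading protease of the gelatinase granules, CSF3R is the receptor for granulocyte colony-stimulating factor, FPR1 and FPR2 are receptors for formylated peptides from bacteria and mitochondria, and Selplg encodes PSGL-1, the ligand by which leukocytes roll on selectins and which lymphocytes and monocytes carry as well. In RNA from whole tissue, fewer neutrophils and less RNA of these genes per neutrophil cannot be told apart. Which cells the RNA of each member came from, Mmp9 included, was not measured.

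The members form 2 pairs of neighbours and 3 single genes. On GRCm38, S100a8 (ENSMUSG00000056054) lies on the plus strand at chr3:90668978-90670035 and S100a9 (ENSMUSG00000056071) on the minus strand at chr3:90692632-90695721, with 22596 bases between them. Fpr1 (ENSMUSG00000045551, minus strand) lies at chr17:17876471-17883940 and Fpr2 (ENSMUSG00000052270, plus strand) at chr17:17887824-17893952, with 3883 bases between them. Mmp9 (ENSMUSG00000017737) is at chr2:164940780-164955850, Csf3r (ENSMUSG00000028859) at chr4:126024550-126044440 and Selplg (ENSMUSG00000048163) at chr5:113818536-113832644. RefSeq promoters of build GRCm38.p6 were at hand for 5 of the 7 members, and those of both neighbouring pairs are shown because the levels within each pair went together over the exposed libraries. Each is read 5′ to 3′ towards the start of the gene, and capitals mark the letters of 3 motifs found on either strand. The motifs were TATAAA (the box bound by TBP), TTNNGCAA (bound by C/EBP factors, regulators of granulocyte genes) and GAGGAA (bound by PU.1, a regulator of myeloid genes). The window was the 250 bases before and the 50 bases after the listed start, and the bases before the start are printed. GENCODE M21 places the start of S100a8 farther upstream, so the last bases shown for it lie within its annotated span.

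S100a8, chr3:90668821-90669070, plus strand: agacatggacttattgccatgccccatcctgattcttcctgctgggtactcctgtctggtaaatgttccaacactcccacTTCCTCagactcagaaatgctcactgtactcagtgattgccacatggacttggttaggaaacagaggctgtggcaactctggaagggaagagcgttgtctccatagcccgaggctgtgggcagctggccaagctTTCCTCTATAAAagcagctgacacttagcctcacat
S100a9, chr3:90695722-90695971, minus strand: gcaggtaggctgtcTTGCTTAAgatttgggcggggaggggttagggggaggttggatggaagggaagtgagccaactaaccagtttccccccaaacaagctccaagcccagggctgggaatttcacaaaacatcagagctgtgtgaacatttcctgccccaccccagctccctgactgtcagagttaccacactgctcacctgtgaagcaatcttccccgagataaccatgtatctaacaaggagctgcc
Fpr1, nearest 100 bases, chr17:17883940-17884039, minus strand: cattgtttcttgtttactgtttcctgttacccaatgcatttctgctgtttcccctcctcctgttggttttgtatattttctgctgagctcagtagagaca
Fpr2, nearest 100 bases, chr17:17887724-17887823, plus strand: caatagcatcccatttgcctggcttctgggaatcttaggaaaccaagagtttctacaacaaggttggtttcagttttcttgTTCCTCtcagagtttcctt

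The S100a8 promoter held TATAAA 30 bases before its listed start, next to the reverse complement of the PU.1 letters, which also occurred 170 bases before the start. In S100a9, TATAAA began at the listed start itself, and the C/EBP letters stood 236 bases before it. TATAAA stood 130 bases before the start of Fpr2 and 227 bases before that of Fpr1. The PU.1 letters stood 19 bases before the start of Fpr2 and 86 bases before that of Csf3r. Among 32851 promoters of the same length, 13.6% held TATAAA, 10.8% the C/EBP letters and 28.3% the PU.1 letters, and these matches are descriptions of the letters alone.

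The table holds FPKM, fragments scaled to the exon length of the gene and to the fragments counted in the library. Levels compared between genes therefore depend on the exon length taken for each gene, and whether it fits the transcripts present was not tested. Counted fragments ran from 14457733 to 16080796 in the control libraries, from 15769236 to 18288854 in the NE libraries and from 16624437 to 18224926 in the brimonidine libraries. The library control 2 stood apart: its median correlation with the other libraries over genes was 0.831, against 0.947 and 0.955 for the other controls and 0.97 to 0.981 for the exposed libraries. Markers of cerebellar or hindbrain neurons, such as the granule cell receptor subunit Gabra6, summed to 220 to 594 FPKM in the controls, to 18.9 to 29.1 in NE and to 19.7 to 80.9 in brimonidine, and Gabra6 itself was at 31.5 to 93.5 FPKM in the controls and at 0 in at least 1 library of each exposed group. What part this had in the member values was not tested. The labels name cochlear cells as the tissue and interstitial cells as the cell type. For the sequenced RNA, the study's methods give the cochlea in one place, and in another the basilar membrane, for an extract of which part went to sequencing, so which tissue was dissected is not settled by the sources used here. The otic gene Coch was present at 444 to 1040 FPKM in the controls and at 468 to 763 in the exposed libraries, and Slc26a5, which encodes the motor protein of outer hair cells, stayed at or below 0.858 FPKM in all 17 libraries.

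S100a9 was among the most abundant transcripts of every library. Its rank by FPKM was 1 to 6, and that of S100a8 was 3 to 15. The order of the mean levels was S100a9, S100a8, Mmp9, Csf3r, Fpr2, Fpr1 and Selplg. S100a9 was 2.26 to 2.57 times S100a8, S100a8 was 8.69 to 24 times Mmp9, Mmp9 was 2.24 to 3.57 times Csf3r, and Fpr2 was 1.3 to 1.89 times Fpr1, each in this order in all 17 libraries. Csf3r was above Fpr2 in 16 of the 17 libraries (not in brimonidine 3), and Fpr1 was above Selplg in 16 of the 17 (not in control 2). All member values rested on 322 to 254094 fragments per library, and the counting error was at most 5.57% of a value, for Fpr1 in control 2.

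**Figure D1:**
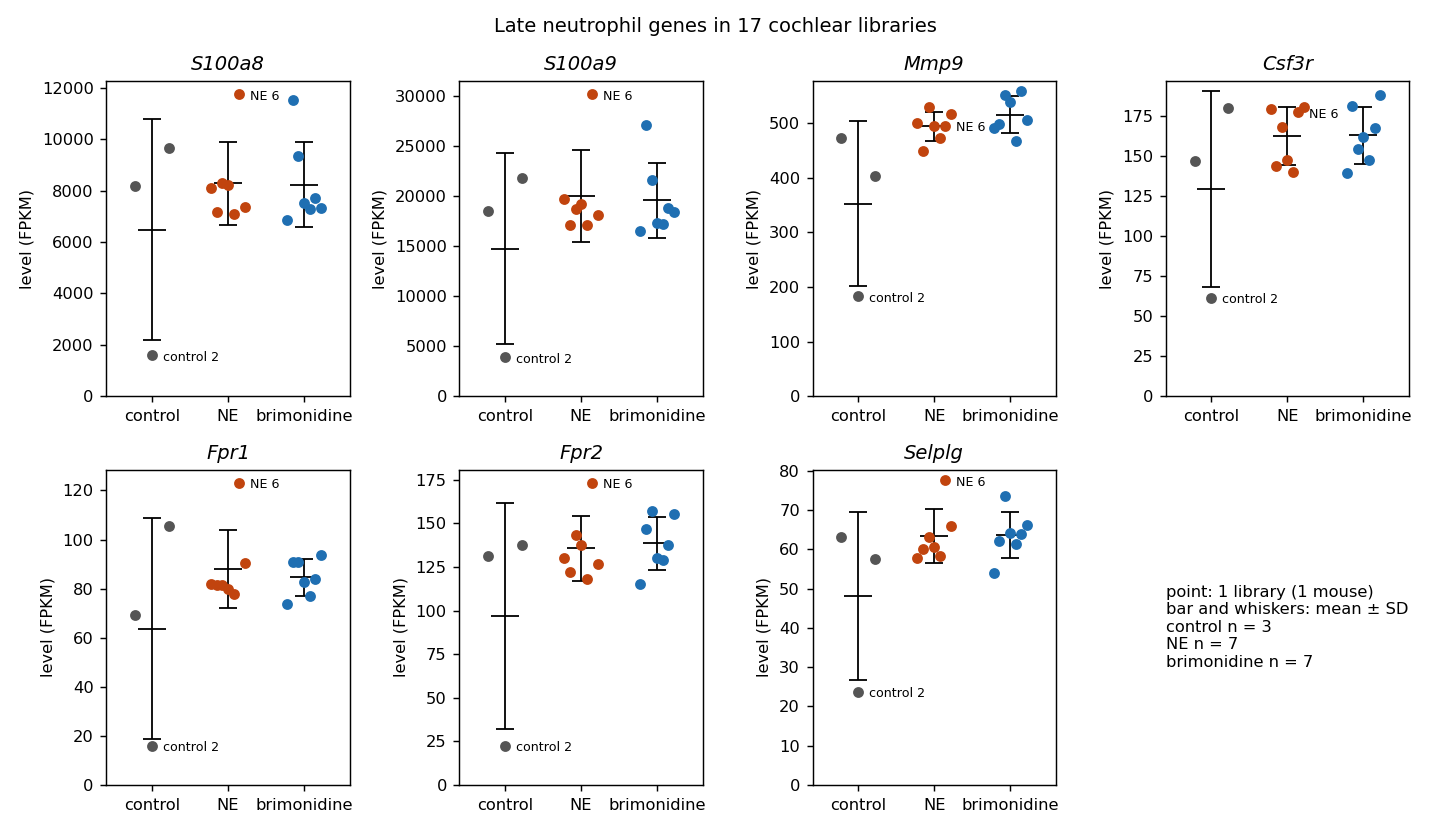
FPKM of the 7 late neutrophil genes (vertical axes, linear, from 0) by group (horizontal axis), 1 point per library, with bars for the mean and whiskers for the SD (control n = 3, NE n = 7, brimonidine n = 7). Control 2 is the lowest point in every panel, controls 1 and 3 lie among or next to the exposed libraries, and NE 6 is the highest point for S100a8, S100a9, Fpr1, Fpr2 and Selplg.

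The calprotectin genes were the most abundant members. S100a8 measured 8198, 1587 and 9661 FPKM in controls 1, 2 and 3, it ran from 7107 through a median of 8097 to 11763 in the NE libraries, and from 6872 through 7540 to 11534 in the brimonidine libraries. S100a9 measured 18564, 3887 and 21797 FPKM in controls 1, 2 and 3, ran from 17150 through 18719 to 30213 in NE, and from 16574 through 18397 to 27116 in brimonidine. The exposed groups overlapped each other over nearly their whole range, and controls 1 and 3 lay inside that range for both genes. Control 2 alone lay below it.

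Together, the calprotectin genes took 0.313% of all fragments in control 2 (95% Wilson interval 0.310% to 0.316%), compared with 1.54% in control 1 and 1.81% in control 3. In the NE libraries the share ran from 1.39% through a median of 1.55% to 2.39%, the highest being NE 6 (interval 2.39% to 2.40%). In the brimonidine libraries it ran from 1.34% through 1.47% to 2.22%, the highest being brimonidine 2. These intervals cover counting error only. The ratio of S100a9 to S100a8 was 2.32 ± 0.109 (SD, n = 3) in control, 2.41 ± 0.0973 (n = 7) in NE and 2.38 ± 0.0738 (n = 7) in brimonidine, so the pair kept nearly the same proportion while its share of the library varied, control 2 included (2.45).

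**Figure D2:**
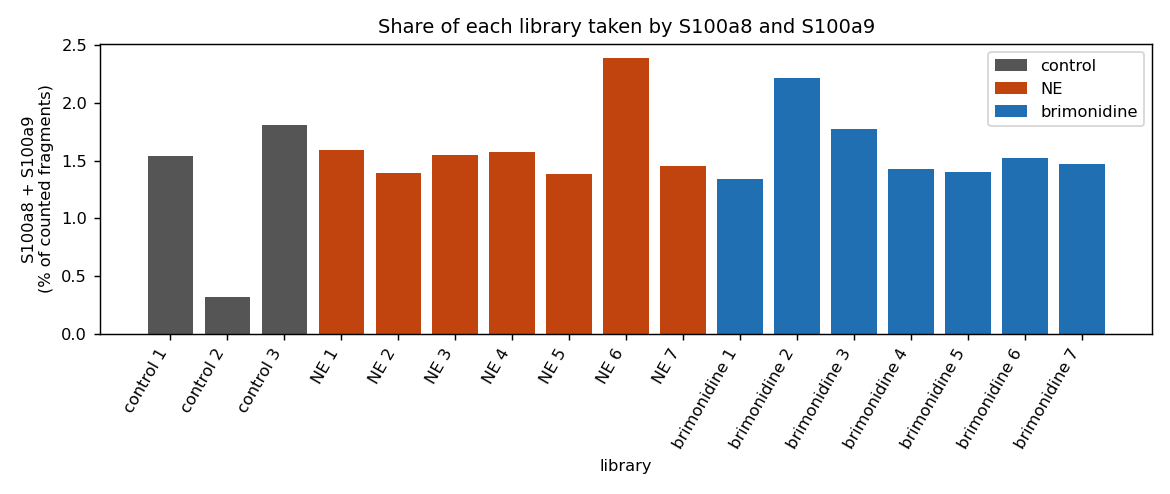
Percent of counted fragments on S100a8 and S100a9 together (vertical axis, from 0) in each of the 17 libraries (horizontal axis), with bars coloured by group. Control 2 holds 0.313%, and the other 16 libraries hold 1.34% to 2.39%.

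Mmp9 varied least among the exposed libraries. It measured 472, 183 and 403 FPKM in controls 1, 2 and 3, ran from 449 through a median of 495 to 529 in NE, and from 468 through 506 to 558 in brimonidine. Of the 7 NE libraries 5 lay above all controls, and of the 7 brimonidine libraries 6 did. The coefficient of variation over the 14 exposed libraries was 6.23% for Mmp9, against 19.0% for S100a8 and 20.3% for S100a9. NE 6, the highest library for calprotectin, held 495 FPKM of Mmp9, in the middle of its group.

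Csf3r, the receptor that drives granulocyte production and release, measured 147, 61.3 and 179 FPKM in controls 1, 2 and 3. It ran from 140 through a median of 168 to 180 in NE and from 139 through 162 to 188 in brimonidine, so control 1 and control 3 lay within the exposed range. Fpr1 measured 69.4, 16.0 and 106 FPKM in controls 1, 2 and 3, ran from 77.7 through 81.6 to 123 in NE, and from 73.8 through 83.7 to 93.7 in brimonidine. Here control 1 lay just below all exposed libraries and control 3 above all but NE 6. Fpr2 measured 131, 22.4 and 137 FPKM in the controls, ran from 118 through 130 to 173 in NE, and from 115 through 137 to 157 in brimonidine. Selplg measured 63.2, 23.7 and 57.7 FPKM in the controls, ran from 57.7 through 60.7 to 77.6 in NE, and from 53.9 through 63.9 to 73.6 in brimonidine. For Fpr2 and Selplg the exposed groups again overlapped each other, and control 2 lay below both. Fpr1 and Fpr2 belong to a family of similar neighbouring genes, and how fragments matching more than 1 of them were counted is not given in the sources used here.

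Control 2 was the lowest of the 17 libraries for all 7 members. It was 5.63-fold lower than the mean of controls 1 and 3 for S100a8, 5.19-fold for S100a9, 5.46-fold for Fpr1 and 6.01-fold for Fpr2. The fold was smaller for Mmp9 (2.39), Csf3r (2.66) and Selplg (2.55). The deficit ran through the neutrophil lists: the ratio of control 2 to the mean of the other controls had a median of 0.193 for the members, 0.242 for 8 azurophil granule genes, 0.274 for 10 specific and gelatinase granule genes and 0.256 for 20 other mature neutrophil genes, and all genes of the 3 lists were below 1. For 26 ligands, receptors and other partners of the members the median ratio was 0.484, and 24 of them were below 1. Over 15360 genes with at least 1 FPKM in the other controls, the median ratio was 1.07 and 5% of genes fell below 0.327.

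Most other lists were higher in that library. The median ratio was 3.64 for erythroid genes, 2.68 for cerebellar or hindbrain neuron genes, 2.61 for cochlear duct and hair cell genes, 2.58 for B cell genes, 2.56 for stria vascularis genes, 2.04 for central glia, 2.01 for bone and osteoblast genes, 1.74 for eosinophil or basophil genes, 1.69 for megakaryocyte or platelet genes, 1.66 for osteoclast genes and 1.45 for endothelial genes. It was 0.880 for T or NK cell genes. The 11 monocyte or macrophage genes had a median of 1.09 but were split, with 5 below 1. Cd14 (0.235), Ly6c2 (0.270), Ccr2 (0.339) and F13a1 (0.381) had ratios in the range of the neutrophil lists. The rest of the list did not, namely Csf1r (0.969), Cd68 (1.085), C1qa (1.11), C1qb (1.12), Mrc1 (1.12), Adgre1 (1.14) and Cx3cr1 (1.41). This division of the list was made after its values were seen. What part these lists had in the member values was not tested.

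**Figure D3:**
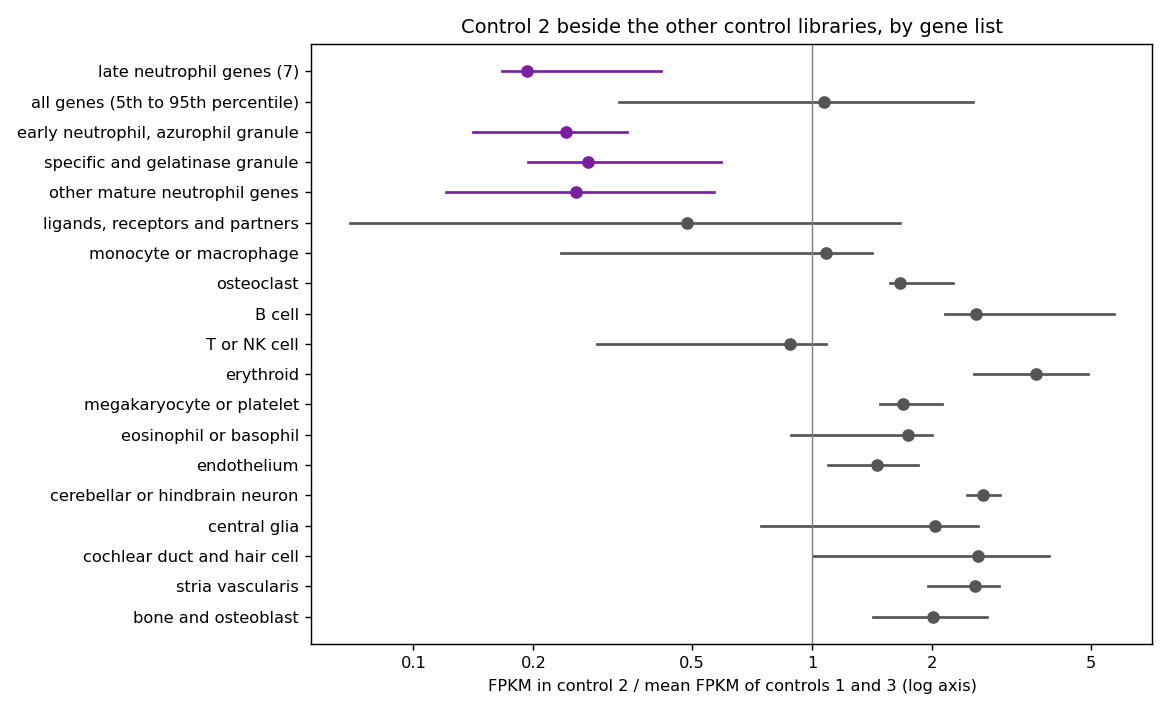
Ratio of FPKM in control 2 to the mean FPKM of controls 1 and 3 (horizontal axis, log scale) for each gene list (vertical axis), with a point for the median and a line from the lowest to the highest gene (for all genes, from the 5th to the 95th percentile). The members and the 3 other neutrophil lists, in purple, have medians from 0.193 to 0.274, and the median over all genes is 1.07.

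For the late neutrophil transcripts, NE was compared with control. By the study's description these groups differed in noise and in saline injections, which cannot be told apart here. No member was called (a limma adjusted p under 0.05 together with a change of 1 or more on the log2 scale, up or down), where 5.76% of 15950 genes tested were called. At an unadjusted p under 0.05 the members counted 1, Mmp9, against 32.9% of all genes. All 7 members passed the filter on low values. Their log2 fold changes ran from 0.45 to 0.85 with a median of 0.71, while the median over all genes was -0.04. Without control 2 the members ran from -0.12 to 0.18, with a median of 0.01. With array weights, which give libraries that stand apart less weight, 5 of the 7 were below 0.

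The calprotectin genes showed the widest intervals. S100a8 differed by a log2 fold change of 0.71 (SE 0.59, limma adjusted p = 0.419, exact permutation p = 0.433) and S100a9 by 0.76 (SE 0.74, limma adjusted p = 0.495, exact permutation p = 0.417), and without control 2 the values were -0.12 and -0.03. Mmp9 had the smallest p, with a log2 fold change of 0.59 (SE 0.25, 95% interval 0.05 to 1.14, limma adjusted p = 0.125, exact permutation p = 0.05), and without control 2 it was 0.18 with an interval of -0.06 to 0.41. Among the receptors, Csf3r differed by 0.45 (limma adjusted p = 0.258), Fpr1 by 0.81 (limma adjusted p = 0.221) and Fpr2 by 0.85 (limma adjusted p = 0.215), and without control 2 these were -0.01, 0.02 and 0.01. Selplg differed by 0.50 (limma adjusted p = 0.185) and, without control 2, by 0.06. None of the 7 differences passed the adjustment, with or without control 2. With 7 libraries against 3, the smallest p the two-sided exact permutation test can give is 0.0167.

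Brimonidine was also compared with NE. No injection is described for the NE mice, so the drug and its injections cannot be told apart here. No member was called, and 0% of 15707 genes were called. At an unadjusted p under 0.05 no member passed, against 5.77% of all genes. The log2 fold changes ran from -0.04 for Fpr1 to 0.06 for Mmp9, with a median of 0.01 for the members and 0.02 for all genes. The adjusted p was 0.929 for Mmp9 and above that for the other members, and exact permutation p values ran from 0.211 for Mmp9 to 0.941 for Csf3r.

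The intervals limit how large a difference between brimonidine and NE in the members could be at this sample size. The brimonidine to NE fold was 1.04 for Mmp9 (95% interval 0.956 to 1.14), 1.00 for Csf3r (0.889 to 1.13), 1.01 for Selplg (0.904 to 1.12), 1.02 for Fpr2 (0.898 to 1.17) and 0.970 for Fpr1 (0.845 to 1.11). The calprotectin genes had wider limits, 0.993 for S100a8 (0.783 to 1.26) and 0.982 for S100a9 (0.741 to 1.30). A fold on this scale is of FPKM + 1.

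In brimonidine with control, which uses the same 3 control libraries as the NE comparison, no member was called, against 5.73% of 15947 genes. Mmp9 again had the smallest p, with a log2 fold change of 0.66 (SE 0.25, limma adjusted p = 0.0895, exact permutation p = 0.0333), and without control 2 it was 0.24 (interval 0.01 to 0.46, limma adjusted p = 0.176). It was the 1 member with an unadjusted p under 0.05, where 35.6% of all genes had one. The other members ran from 0.46 for Csf3r to 0.88 for Fpr2, and without control 2 from -0.13 for S100a8 to 0.07 for Selplg. Permutation tests of single genes numbered 21 for the members and 192 for the genes of the neutrophil and partner lists described next, over the 3 comparisons, and p-values from them are not adjusted.

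**Figure D4:**
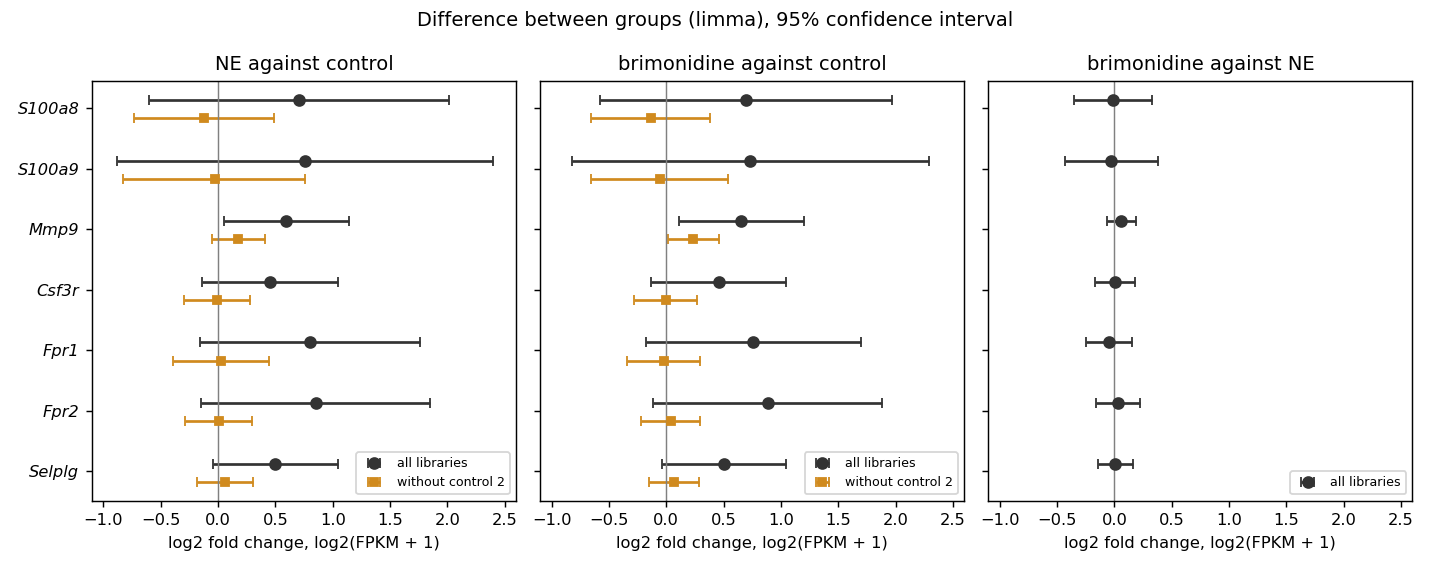
Log2 fold change (horizontal axis, on log2(FPKM + 1)) of each member (vertical axis) in the 3 comparisons, with 95% confidence intervals from limma, for all libraries (circles) and without control 2 (squares). Against control the circles lie between 0.45 and 0.88, the squares lie between -0.13 and 0.24, and brimonidine against NE lies between -0.04 and 0.06.

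The partners of the members were described from a list of 28 ligands, receptors, inhibitors, modifying enzymes and regulators, of which 26 were tested. None was called in any of the 3 comparisons. In NE against control, 25 of the 26 were above 0 with a median of 0.39, and without control 2, 16 were above 0 with a median of 0.075. At an unadjusted p under 0.05 the partners counted 6, all higher in NE, where 32.9% of all genes had one. Sele, the E-selectin of activated endothelium that binds PSGL-1, had an adjusted p under 0.05 by limma without reaching the fold threshold (log2 fold change 0.70, adjusted p = 0.0139). It measured 2.83, 1.65 and 3.74 FPKM in controls 1, 2 and 3 and 4.00 to 5.60 in NE. Without control 2 its log2 fold change was 0.47 (limma adjusted p = 0.0394). Gfi1, a repressor needed for granulocyte maturation, also passed the adjustment below the fold threshold (log2 fold change 0.74, limma adjusted p = 0.0375). It measured 17.1, 7.79 and 16.2 FPKM in the controls and 18.0 to 27.9 in NE. Without control 2 its log2 fold change was 0.40 (limma adjusted p = 0.102). The share of all genes that passed the adjustment below the fold threshold was not counted. In brimonidine against control, Gfi1 was at 0.78 (limma adjusted p = 0.023), and at 0.44 without control 2 (limma adjusted p = 0.0164). Sele there was at 0.47 (limma adjusted p = 0.0875), and at 0.24 without control 2 (limma adjusted p = 0.35).

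Several ligands and attractants measured less in brimonidine than in NE, without passing the adjustment. Csf3, the ligand of Csf3r, was at 6.15 ± 2.28 FPKM in NE and 3.46 ± 1.07 in brimonidine (SD, n = 7 each), a log2 fold change of -0.66 with limma adjusted p = 0.603 and exact permutation p = 0.00991. The neutrophil chemokines Cxcl1 and Cxcl2 had log2 fold changes of -0.81 (limma adjusted p = 0.733) and -0.91 (limma adjusted p = 0.757), with Cxcl2 at 46.9 ± 39.0 FPKM in NE and 20.9 ± 6.48 in brimonidine. Without NE 6 these 3 values were -0.54, -0.56 and -0.62. The control libraries spread widely for the same genes. In controls 1, 2 and 3, Csf3 measured 4.21, 0.466 and 9.07 FPKM. Cxcl1 measured 2.36, 0.808 and 7.86 FPKM there, and Cxcl2 11.4, 4.14 and 108 FPKM. Timp1, the inhibitor of MMP9, had a log2 fold change of -0.51 (limma adjusted p = 0.852). Socs3, the feedback inhibitor of the G-CSF receptor, had a log2 fold change of -0.52 (limma adjusted p = 0.661). Of the 26 genes, 9 had an unadjusted p under 0.05 in this comparison, where 5.77% of all genes had one. Of these, 7 were lower in brimonidine and 2 were higher, the last being the chemokine gene Cxcl12 and the myeloid regulator gene Cebpa. Without NE 6 the count was 8, and Timp1 was at -0.38 with an unadjusted limma p of 0.0622.

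Sele measured 4.93 ± 0.545 FPKM in NE and 4.09 ± 0.702 in brimonidine (SD, n = 7 each), a log2 fold change of -0.23 (limma adjusted p = 0.822). Selp, the P-selectin of platelets and endothelium that also binds PSGL-1, had a log2 fold change of -0.24 (limma adjusted p = 0.865), where the median over all genes was 0.02. Among the receptors of calprotectin, Tlr4 had a log2 fold change of 0.09 and Ager, which encodes RAGE, one of -0.06. Anxa1, whose product annexin A1 binds formyl peptide receptors, was at 814 ± 118 FPKM in NE and 784 ± 60.7 in brimonidine (SD, n = 7 each), a log2 fold change of -0.05. Fpr3, a further formyl peptide receptor gene, was at or below 0.15 FPKM in every library.

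Other neutrophil genes, from the earliest granule proteins to further products of the mature cell, were tested from 3 lists. In NE against control none was called, and the median log2 fold change was 0.79 for 8 azurophil granule genes (such as the myeloperoxidase gene Mpo and the elastase gene Elane), 0.80 for 10 specific and gelatinase granule genes and 0.64 for 20 other mature neutrophil genes. Without control 2 these medians were 0.13, 0.12 and 0.05. In brimonidine against NE the medians were 0.05, 0.02 and 0.03, and none was called. At an unadjusted p under 0.05 the specific and gelatinase list counted 3 of 10, all higher in brimonidine. They were Chil3, Mmp8 and Olfm4. The other 2 lists counted 0, where 5.77% of all genes had one. Chil3 had a log2 fold change of 0.35 (limma adjusted p = 0.521). Olfm4, a specific granule glycoprotein gene of a subset of neutrophils, had an adjusted p under 0.05 below the fold threshold, at 29.6 ± 2.01 FPKM in NE and 43.1 ± 4.86 in brimonidine (SD, n = 7 each), a log2 fold change of 0.52 with limma adjusted p = 0.043, and without NE 6 the adjusted p was 0.0682. Mmp8, the collagenase of the specific granules, had a log2 fold change of 0.34 (limma adjusted p = 0.485), beside 0.06 for the gelatinase gene Mmp9.

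In brimonidine against control, the 3 lists had medians of 0.83, 0.77 and 0.73, compared with 0.19, 0.19 and 0.09 once control 2 was left out. Chil3, which encodes a chitinase-like protein of neutrophil precursors and macrophages, was the 1 gene of these lists that was called (log2 fold change 1.15, limma adjusted p = 0.0496), and without control 2 it was below the fold threshold at 0.59 (limma adjusted p = 0.0405) and no gene of the 3 lists was called. Cerebellar or hindbrain neuron genes were lower in both exposed groups, with 9 of 9 called in each comparison with control and medians of -4.11 and -3.94.

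Over all 14 exposed libraries, the pairs of members with Mmp9 had lower Pearson correlations than the pairs without it. This depended on 2 libraries, and rank correlations were not computed without them. These correlations of log2(FPKM + 1) are descriptions over NE and brimonidine libraries together, which share a total to which each value is scaled. Of the 21 pairs, the 15 without Mmp9 had a Pearson r of 0.456 to 0.981 (median 0.737), and the 6 with Mmp9 had 0.134 to 0.427 (median 0.29). Without NE 6 and brimonidine 2, a choice made after seeing the data, the 15 pairs ran from 0.22 to 0.936 (median 0.633). The 6 ran from 0.501 to 0.616 (median 0.587), so by Pearson r Mmp9 no longer stood apart. The lowest pair was then S100a8 with Csf3r. In ranks over all 14 libraries, Spearman rho ran from 0.508 to 0.952 for the 15 pairs and from 0.429 to 0.581 for the 6, so the ranges overlapped. S100a8 and S100a9 had r = 0.981 and Spearman rho = 0.952, and r was 0.984 within NE and 0.987 within brimonidine. Without the 2 libraries farthest from the median, NE 6 and brimonidine 2, it was 0.936. Fpr1 and Fpr2, the other neighbouring pair, had r = 0.83 and rho = 0.779, with 0.83 within NE and 0.958 within brimonidine, and 0.685 without NE 6 and brimonidine 7.

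Over the 14 exposed libraries together, Selplg, on another chromosome, went as closely with the formyl peptide receptor genes as they went with each other. Its r was 0.857 with Fpr1 and 0.853 with Fpr2. Within NE these were 0.96 and 0.849. Within brimonidine they were 0.755 and 0.861, both below the 0.958 of Fpr1 with Fpr2. Without the 2 farthest libraries of each pair they were 0.769 and 0.677. S100a8 and Fpr1 had r = 0.737, and 0.398 without NE 6 and brimonidine 2, so the closeness of that pair rested on those libraries. S100a9 and Mmp9 had r = 0.134 and rho = 0.429, and r was 0.584 without the same 2 libraries.

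**Figure D5:**
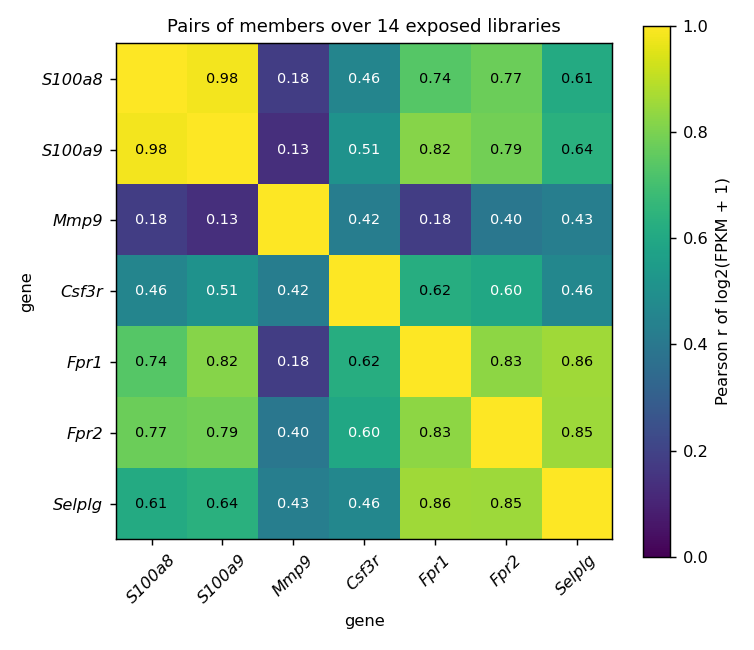
Pearson r of log2(FPKM + 1) between each pair of members (rows and columns are genes, colour is r from 0 to 1) over 14 exposed libraries. The pair S100a8 and S100a9 has r = 0.98, and the row of Mmp9 holds the lowest values, from 0.13 to 0.43.

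The level of the members as a group can be summarised by their mean log2(FPKM + 1). It was 8.92, 7.04 and 9.08 in controls 1, 2 and 3, ran from 8.85 through 9.00 to 9.36 in NE, and from 8.82 through 9.03 to 9.20 in brimonidine. NE 6 was the highest and control 2 the lowest. Over the exposed libraries the same mean of the 20 other mature neutrophil genes followed that of the members with r = 0.969. The mean of the specific and gelatinase granule genes did so with 0.781, and that of the azurophil granule genes with 0.647, as a description over 14 libraries. NE 6 was the highest library for each of these means, and how far the correlations rest on it was not tested.

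Among 16409 genes, those whose level was most like the mean of the standardised members over the 14 exposed libraries included Sqor (r = 0.948), Cdc42 (r = 0.921), Msra (r = 0.921) and Rchy1 (r = 0.921). Sqor encodes a mitochondrial enzyme of sulfide oxidation, Cdc42 a small GTPase of cell polarity and migration, Msra a reductase that repairs oxidised methionine, and Rchy1 a ubiquitin ligase. Sqor measured 26.1, 9.74 and 26.4 FPKM in controls 1, 2 and 3, libraries that the choice did not use. Rchy1 measured 13.3, 10.3 and 10.7 FPKM there. Over all 17 libraries r was 0.993 for Sqor and 0.51 for Rchy1. These values include the 14 libraries used for the choice, so they are no independent check.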

How the data were processed

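Total RNA from cochlear tissue of 17 mice (cochlea or basilar membrane, which the study's methods state differently; TRIzol, stranded TruSeq mRNA libraries, NovaSeq instrument) was measured in 3 control, 7 NE and 7 brimonidine libraries, grouped by the sample labels. The authors deposited FPKM values for 35285 genes. Per the labels, the submitters' processing notes name Trimmomatic, HISAT2, Cufflinks and HTSeq and the build mm10, without versions. The paper's own test was DESeq2 on counts. FPKM times the merged exon length of GENCODE M21 gave whole fragments (within 0.05) in every library for 32489 of 35029 genes above 0 (92.7%), all members included.

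Genes with at least 1 FPKM in at least 3 of the compared libraries were tested with limma 3.58.1 (R 4.3.3; lmFit, eBayes with trend) on log2(FPKM + 1), which understates changes of low genes, the model holding only the 2 compared groups, with Benjamini-Hochberg adjustment across every gene tested. A call needed an adjusted p under 0.05 and a log2 change of 1 or more in either direction, as in the study's methods. Single members and list genes were compared by exact two-sided permutation tests (Python 3.11.15, scipy 1.17.1, numpy 2.4.6, pandas 2.3.3), and figures drawn with matplotlib 3.10.9. The code was tested on simulated data. The members and the 17 gene lists were chosen with earlier results of these data known, so the lists are no independent evidence. Named genes were the members, genes of a discussed list and the 5 genes most like the members, of which 1 is not reported here. Alternatives were a pseudocount of 0.1, no filter, median ratio or quantile scaling, all 17 libraries in 1 model, array weights, the replicate block, limma's voom on the recovered fragments, and each library left out in turn. List values without control 2 or NE 6, and correlations by pair without NE 6 and brimonidine 2, were added after seeing the data.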

Additional observations from a re-analysis of the deposited data

Results flagged for a closer look

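One NE library, NE 6, lay far from the other 6 for 4 of the 7 members. Its gap to the nearest of the others, as a share of the group's range, was 0.745 for S100a8, where it measured 11763 FPKM and the others 7107 to 8293. The share was 0.802 for S100a9 (30213 FPKM, the others 17150 to 19730), 0.716 for Fpr1 (123 FPKM, the others 77.7 to 90.6) and 0.591 for Selplg (77.6 FPKM, the others 57.7 to 65.9). The critical value for 7 libraries is 0.568. Of 14 groups of member values examined, 4 passed it, and chance flags about 1 in 20 groups. Since the members vary together, these 4 are not independent.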

How the results depend on the processing

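No member was called under any alternative run in any comparison. The number of called genes in NE against control was 918, 0 with the replicate block, and 368 (without control 2) to 934 with each library left out in turn. In brimonidine against NE it was 0 (906 genes at an unadjusted p under 0.05), 1 with array weights and 0 with each library left out. In brimonidine against control it was 913, 236 with the replicate block, and 468 (without control 2) to 1080 with each library left out. Same-numbered libraries did not deviate together (correlations of -0.221 to 0.0832), which gives no sign that the replicate numbers pair samples. Whether they do is not known, so no conclusion is drawn from the loss of calls under the block. Scaling moved the median log2 fold change of all genes by about the size of small member values, from -0.04 to 0.06 for NE against control by median ratio or quantile scaling.

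Member log2 fold changes changed sign in 8 of 126 alternatives for NE against control, 27 of 154 for brimonidine against NE and 8 of 126 for brimonidine against control. With array weights, which weigh down libraries that stand apart, NE against control gave -0.245 for S100a8, -0.166 for S100a9, -0.113 for Csf3r, -0.235 for Fpr1 and -0.025 for Fpr2, and brimonidine against control gave -0.256, -0.178, -0.112 and -0.252 for S100a8, S100a9, Csf3r and Fpr1. With each library left out in turn, NE against control ran from -0.123 to 1.180 for S100a8, -0.031 to 1.212 for S100a9 and -0.009 to 0.758 for Csf3r. Brimonidine against control ran from -0.133 to 1.169 for S100a8, -0.058 to 1.186 for S100a9, -0.003 to 0.764 for Csf3r and -0.021 to 1.302 for Fpr1. In brimonidine against NE, quantile scaling gave 0.064 for S100a8 and 0.087 for S100a9, median ratio scaling gave -0.009 for Csf3r and -0.007 for Selplg, and array weights gave -0.003 for Csf3r. With each library left out in turn that comparison ran from -0.095 to 0.077 for S100a8, -0.108 to 0.076 for S100a9, -0.030 to 0.042 for Csf3r, -0.071 to 0.039 for Fpr1 and -0.027 to 0.057 for Selplg. Apart from the libraries left out, the cause of these changes was not tested.

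Mmp9 passed an adjusted p under 0.05, with a log2 fold change under 1, in NE against control with all 17 libraries in 1 model (adjusted p = 0.034 by limma), with array weights (0.0252) and without control 1 (0.0341). In brimonidine against control it passed with the same 3 settings (0.0216, 0.00997 and 0.0226) and with quantile scaling (0.0497), and Selplg passed without control 1 (0.0467). Over all alternatives the adjusted p of Mmp9 ran from 0.0252 to 0.525 and from 0.00997 to 0.509.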
